A study of Homo sapiens with 12 samples.

Results

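The 10 genes described here were the YAP and TAZ coactivators with their DNA-binding partner TEAD1 and a set of their target genes and regulators: YAP1, WWTR1 (which encodes TAZ), TEAD1, LATS2, AJUBA, AMOTL1, AMOTL2, CCN1 (formerly CYR61), CCN2 (formerly CTGF) and ANKRD1. They were chosen by name, with earlier results of these data known. Each was read from its 1 probe set in the table of log2 signals on 12 arrays. They are 10 of the 18404 genes with a probe set that names a single gene.

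YAP1 and WWTR1 encode coactivators that bind no DNA themselves and work through TEAD transcription factors such as TEAD1. In the Hippo pathway, MST kinases activate LATS kinases, which phosphorylate YAP and TAZ and so hold them in the cytoplasm or send them to degradation. AMOTL1 and AMOTL2 encode angiomotin-like scaffolds that bind YAP at junctions and on actin, and AJUBA encodes a LIM protein that binds and restrains LATS kinases. When YAP and TAZ are nuclear, TEAD factors bound to them raise transcription of CCN1, CCN2 and ANKRD1, and also of AMOTL2, AJUBA and LATS2. Because the pathway acts on where the YAP protein lies, mRNA arrays measure its components and its targets but not its activity.

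All cells were A673, an established Ewing sarcoma line whose EWSR1 gene is fused to the ETS-family gene FLI1, so every group carried the fusion. The 6 groups of 2 arrays each were cells left without treatment (0 h), DMSO vehicle for 24 h, 5 nM or 50 nM actinomycin D for 24 h, and lentiviral shRNA against FLI1 or against lacZ, a bacterial gene that serves as control, labelled 48 h. The treatment protocol describes puromycin selection after infection, so the time since infection in the shRNA groups may be longer than the label. Actinomycin D is a DNA-binding chemotherapeutic agent, and the comparisons ask what loss of EWS-FLI1 and what a low and a high dose of the drug do to expression.

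The promoter that drove the shRNAs was not given in the sources used here, a single FLI1 shRNA was not checked by another, and a single cell line was used. Nothing says that the 2 arrays of a group came from separate cultures for the shRNA, untreated or 50 nM groups, so p-values measure how far such arrays differ, a spread that may be technical only.

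The stretches just upstream of CCN2, ANKRD1 and YAP1 are shown because they carry the letters that TEAD factors are known to bind, GGAATG, and because these genes gave distinct patterns below. Each line holds the 250 bases before the transcript start, 5′ to 3′ on the gene's strand, from the RefSeq promoter table of GRCh38.p14, with GGAATG in capitals. The CCN2 window lies at chr6:131951373-131951622 (minus strand), ANKRD1 at chr10:90921088-90921337 (minus strand) and YAP1 at chr11:102110197-102110446 (plus strand).
CCN2: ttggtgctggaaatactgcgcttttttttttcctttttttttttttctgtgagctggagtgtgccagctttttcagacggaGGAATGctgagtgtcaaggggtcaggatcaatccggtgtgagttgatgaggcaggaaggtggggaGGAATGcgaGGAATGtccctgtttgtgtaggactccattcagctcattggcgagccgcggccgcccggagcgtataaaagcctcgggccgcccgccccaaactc
ANKRD1: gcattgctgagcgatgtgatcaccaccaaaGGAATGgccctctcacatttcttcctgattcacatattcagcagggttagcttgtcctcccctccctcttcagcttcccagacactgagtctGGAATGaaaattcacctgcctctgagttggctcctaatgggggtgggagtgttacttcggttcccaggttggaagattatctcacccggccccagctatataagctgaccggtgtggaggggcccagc
YAP1: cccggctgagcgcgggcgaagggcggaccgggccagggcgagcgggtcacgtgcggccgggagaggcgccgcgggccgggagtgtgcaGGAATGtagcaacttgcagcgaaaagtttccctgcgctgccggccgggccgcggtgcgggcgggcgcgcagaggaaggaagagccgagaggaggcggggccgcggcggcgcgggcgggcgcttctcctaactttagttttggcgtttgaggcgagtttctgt

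In these windows CCN2 held 3 copies of GGAATG, which began 169, 104 and 95 bases before the start. ANKRD1 held 2, at 220 and 128 bases, and YAP1 held 1, at 162 bases. Of the 10 genes, 8 were in the table with 11 windows, and 5 windows of 5 genes held the letters on either strand. AMOTL2 and AJUBA each had a single copy in 1 of their 2 windows, at 69 and 59 bases, and the windows of LATS2, AMOTL1 and WWTR1 had none. CCN1 and TEAD1 were not matched. Among all 35116 windows of the table, 11.9% held GGAATG and 0.94% held 2 or more copies.

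Other letters were searched on both strands of the same windows. The AP-1 motif TGANTCA stood once in ANKRD1, 195 bases before the start, against 6.57% of all windows. The paired ETS core GGAAGGAA stood once in YAP1, 90 bases before the start, against 3.06% of all windows, and the CArG box of SRF was in none of the 11 windows against 1.16% of all. GGAATG itself contains the ETS core GGAA, so the same letters can be counted for either family. A match is a description of the letters and not evidence of binding.

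The arrays were alike in level, with medians of 6.67 to 6.83, and within each group the pair of arrays had an r of 0.995 to 0.998. The targeted gene served as the check of the labels: FLI1 signal was 8.63 and 8.45 with lacZ shRNA and 7.30 and 7.08 with FLI1 shRNA, a fall of 1.35 on the log2 scale to 39.2% of control (limma, adjusted p = 5.4e-06), without separating the fusion from unfused FLI1. FLI1 changed by -0.08 at 5 nM (limma, adjusted p = 0.48) and by -0.95 at 50 nM (adjusted p = 1.7e-05). Ewing sarcoma markers were present, with mean log2 signals over the 12 arrays of 12.1 for CD99, 10.9 for STEAP1 and 9.24 for NKX2-2. The blood marker PTPRC had 3.68 and the epithelial marker EPCAM 5.04. Other markers of these lists were higher, up to 6.21 for CD14 (blood) and 7.65 for KRT14 (epithelial). KRT14 stood at percentile 52.9 of all genes and CD14 at 29.9.

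The mean over the 4 measured blood markers was 4.81 to 5.15 on the arrays without actinomycin D and 5.18 to 5.34 on the 4 arrays with it. Of these 4, 2 rose at 5 nM, 3 at 50 nM and 0 with FLI1 shRNA (0 also at an unadjusted p under 0.05 in limma). Over the 4 endothelial markers the mean was 5.41 to 5.67 without and 5.52 to 5.74 with the drug. Of them 1 rose at 5 nM, 2 rose at 50 nM and 1 fell with FLI1 shRNA. Over the 4 epithelial markers the mean was 5.62 to 6.03 and 5.99 to 6.22, with no call in these comparisons. Among all genes 30.3% rose at 5 nM and 25.8% at 50 nM, and with FLI1 shRNA 14.6% rose and 9.28% fell. At the unadjusted threshold 6362 of all 18404 genes passed with FLI1 shRNA, in either direction. The Ewing marker mean was 10.7 to 10.9 on all arrays but those at 50 nM (10.2) and with FLI1 shRNA (9.86 to 9.89). Of the blood markers PTPRC did not exceed 3.82 on any array, while CD3E, CD14 and HBB reached 5.42, 6.63 and 5.75. The part of these shifts in the results that follow was not tested.

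**Figure D1:**
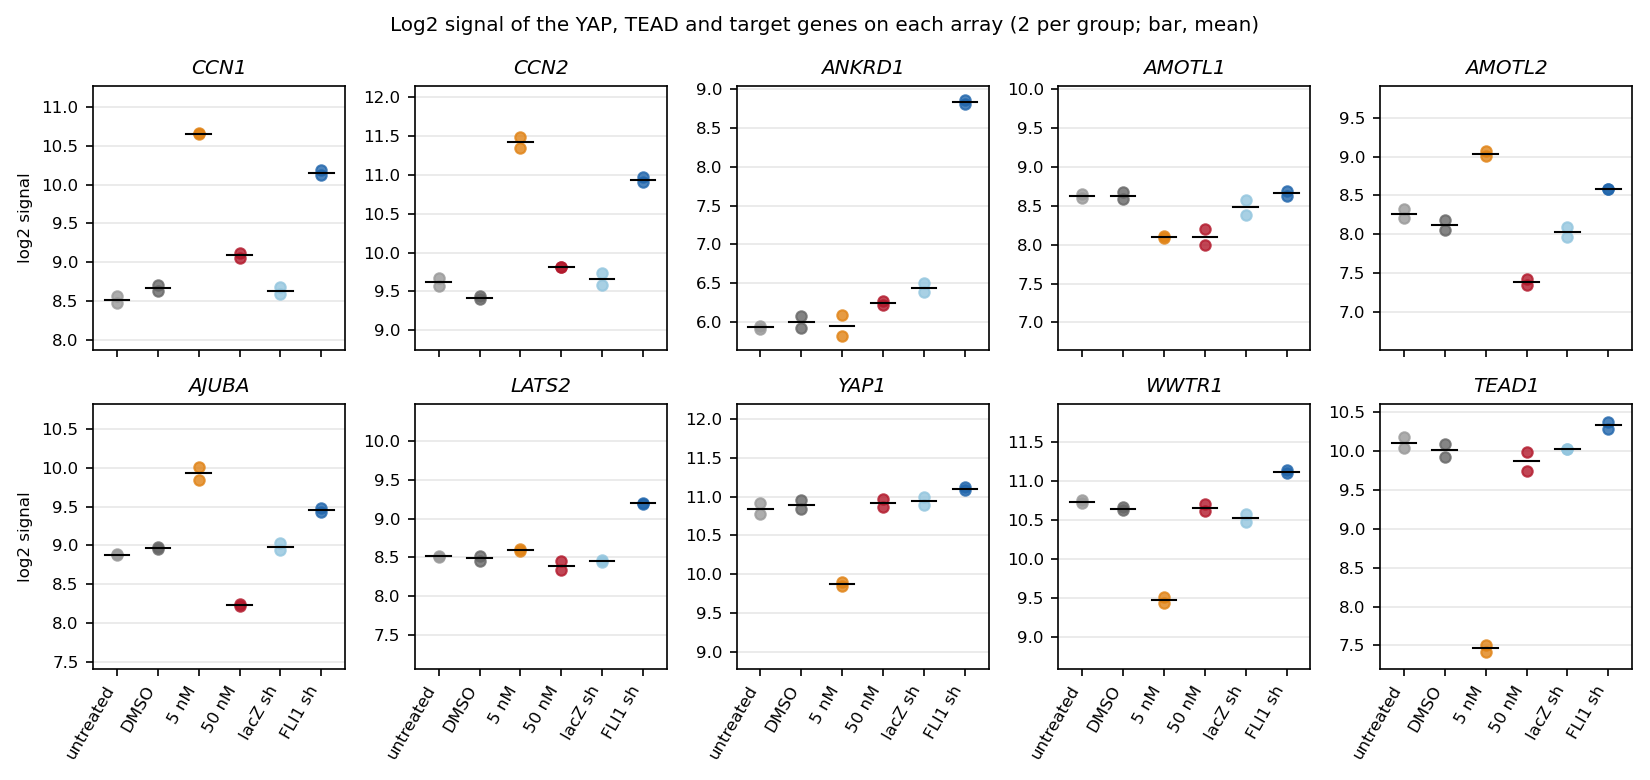
Log2 signal (vertical axis, each panel spanning the same range) of the 10 genes on each array by group (horizontal axis), with 2 points per group and a bar at their mean. YAP1, WWTR1 and TEAD1 were lowest at 5 nM actinomycin D, CCN1, CCN2, AMOTL2 and AJUBA were highest there, and ANKRD1 and LATS2 were highest with FLI1 shRNA.

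The coactivators and TEAD1 were low on the same 2 arrays. YAP1, on chromosome 11 (chr11:102110447-102233424 in GRCh38.p14), had log2 signals of 10.77 and 10.91 in untreated cells, 10.95 and 10.83 with DMSO, 9.85 and 9.90 at 5 nM, 10.97 and 10.87 at 50 nM, 10.996 and 10.897 with lacZ shRNA, and 11.08 and 11.12 with FLI1 shRNA. Both 5 nM arrays lay below all others and both FLI1 shRNA arrays above all others, whereas untreated, DMSO, 50 nM and lacZ arrays overlapped. WWTR1 (chr3:149517235-149724788), the gene of the YAP paralogue TAZ, had 10.71 and 10.76 untreated, 10.62 and 10.67 with DMSO, 9.43 and 9.51 at 5 nM, 10.70 and 10.62 at 50 nM, 10.57 and 10.48 with lacZ shRNA, and 11.15 and 11.10 with FLI1 shRNA. Its lowest and highest groups were those of YAP1, and the 50 nM and DMSO arrays overlapped.

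TEAD1 (chr11:12674421-12944737), the DNA-binding partner, spanned the widest range of these 3 genes, 2.96 log2 units. It had 10.03 and 10.18 untreated, 9.93 and 10.10 with DMSO, 7.42 and 7.51 at 5 nM, 9.99 and 9.75 at 50 nM, 10.03 and 10.02 with lacZ shRNA, and 10.38 and 10.29 with FLI1 shRNA. The 5 nM arrays stood more than 2 log2 units below every other array, and FLI1 shRNA arrays lay above the rest.

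The regulators did not share a single pattern. LATS2 (chr13:20973036-21061586), the kinase that phosphorylates YAP, had 8.52 and 8.51 untreated, 8.46 and 8.52 with DMSO, 8.61 and 8.58 at 5 nM, 8.46 and 8.34 at 50 nM, 8.44 and 8.47 with lacZ shRNA, and 9.19 and 9.20 with FLI1 shRNA. Both FLI1 shRNA arrays lay above all others, the 5 nM arrays came next, and neighbours among the other 4 groups overlapped. AMOTL1 (chr11:94706460-94876748) had 8.60 and 8.65 untreated, 8.68 and 8.58 with DMSO, 8.08 and 8.12 at 5 nM, 8.21 and 7.99 at 50 nM, 8.58 and 8.38 with lacZ shRNA, and 8.63 and 8.69 with FLI1 shRNA. All 4 arrays with actinomycin D lay below all 8 without it, and the 2 doses overlapped.

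AMOTL2 and AJUBA were highest at 5 nM and lowest at 50 nM. AMOTL2 (chr3:134355345-134375417) had 8.21 and 8.32 untreated, 8.05 and 8.18 with DMSO, 9.07 and 9.0 at 5 nM, 7.35 and 7.43 at 50 nM, 8.09 and 7.96 with lacZ shRNA, and 8.58 and 8.59 with FLI1 shRNA. AJUBA (chr14:22971177-22982551) had 8.88 and 8.89 untreated, 8.95 and 8.99 with DMSO, 10.01 and 9.85 at 5 nM, 8.22 and 8.25 at 50 nM, 8.94 and 9.03 with lacZ shRNA, and 9.48 and 9.43 with FLI1 shRNA. For both genes the order was 50 nM, then the 3 control groups, then FLI1 shRNA, then 5 nM, and of the neighbouring groups in that order only lacZ and DMSO overlapped.

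The secreted matricellular proteins encoded by CCN1 and CCN2 are the most widely used readouts of YAP and TAZ. CCN1 (chr1:85580761-85583950) had 8.47 and 8.57 untreated, 8.70 and 8.63 with DMSO, 10.65 and 10.67 at 5 nM, 9.05 and 9.12 at 50 nM, 8.68 and 8.58 with lacZ shRNA, and 10.12 and 10.18 with FLI1 shRNA. CCN2 (chr6:131948176-131951372) had 9.58 and 9.68 untreated, 9.44 and 9.40 with DMSO, 11.49 and 11.35 at 5 nM, 9.82 and 9.82 at 50 nM, 9.58 and 9.74 with lacZ shRNA, and 10.97 and 10.90 with FLI1 shRNA. Both ran from the controls through 50 nM and FLI1 shRNA to 5 nM, with no overlap between 50 nM, FLI1 shRNA and 5 nM arrays.

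ANKRD1 (chr10:90912096-90921087), which encodes an ankyrin-repeat protein of muscle nuclei and sarcomeres, had 5.96 and 5.92 untreated, 6.08 and 5.93 with DMSO, 6.09 and 5.82 at 5 nM, 6.27 and 6.22 at 50 nM, 6.39 and 6.50 with lacZ shRNA, and 8.80 and 8.86 with FLI1 shRNA. Untreated, DMSO and 5 nM arrays overlapped, and the FLI1 shRNA arrays stood more than 2 log2 units above all others. Its mean over the 12 arrays lay below the 40th percentile of all genes, so a filter at that level kept the other 9 genes and removed ANKRD1. No detection call was used here, so whether ANKRD1 was above background on the other 10 arrays was not established.

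**Figure D2:**
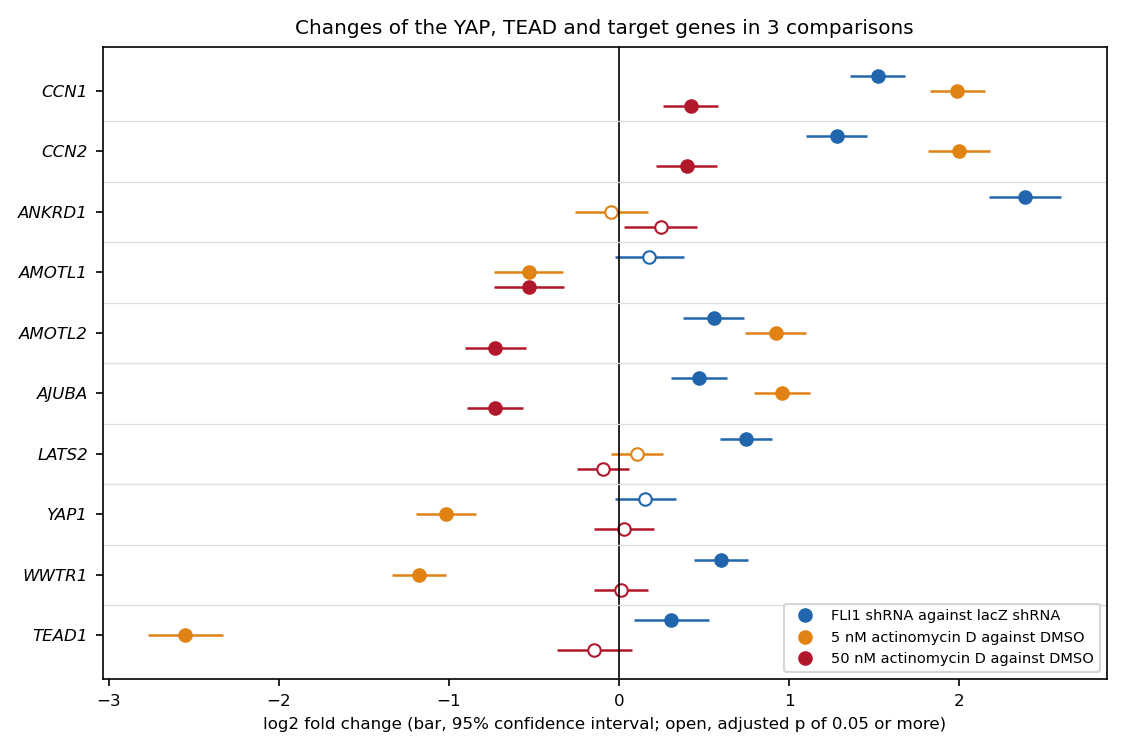
Log2 fold change (horizontal axis) of the 10 genes (vertical axis) with FLI1 shRNA against lacZ shRNA and with 5 nM and 50 nM actinomycin D against DMSO. Bars are 95% confidence intervals from limma and open points did not reach an adjusted p of 0.05. ANKRD1 moved by 2.39 with FLI1 shRNA and by -0.05 at 5 nM, and TEAD1 by 0.31 and -2.55.

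With FLI1 shRNA, the target genes ANKRD1, CCN1 and CCN2 rose most. Each gene was tested with limma, using the spread estimated from all 12 arrays, p-values were adjusted over the 18404 genes, and a gene is said to have risen or fallen where the adjusted p was under 0.05. Standard errors of the log2 changes lay between 0.07 and 0.10. ANKRD1 rose by 2.39 log2 units (5.23-fold, adjusted p = 3.0e-07), CCN1 by 1.52 (2.87-fold, adjusted p = 6.3e-07) and CCN2 by 1.28 (adjusted p = 3.4e-06), and these 3 also passed the thresholds of the methods, a fold above 2 and an adjusted p under 0.01.

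Of the genes that are both regulators and targets, LATS2 rose by 0.74 after limma's test (adjusted p = 3.2e-05), AMOTL2 by 0.56 (adjusted p = 5.9e-04) and AJUBA by 0.47 (adjusted p = 0.0010). The coactivator gene WWTR1 rose by 0.60 (adjusted p = 1.8e-04) and TEAD1 by 0.31 (adjusted p = 0.046), whereas YAP1 changed by 0.15 (interval -0.02 to 0.33, adjusted p = 0.20) and AMOTL1 by 0.18 (interval -0.03 to 0.38, adjusted p = 0.20). The rise of TEAD1 lost its call when any of the 4 arrays was left out (limma adjusted p from 0.098 to 0.22).

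Untreated cells in place of lacZ shRNA, a control chosen after seeing the data, also gave 8 genes that rose and 0 that fell. The share over all genes was not counted for this control. With that control YAP1 gained a call (0.26, limma adjusted p = 0.034) and TEAD1 lost it (0.23, adjusted p = 0.13). AMOTL2 was then at 0.32 (adjusted p = 0.014) and WWTR1 at 0.39 (adjusted p = 0.0025), smaller than against lacZ shRNA, while ANKRD1 was at 2.89 (adjusted p = 4.8e-08).

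In all, 8 of the 10 genes rose with FLI1 shRNA, beside 14.6% of all genes that rose. Because the genes were chosen with earlier results of these data known, this count is a description and not a test. None of the 10 fell at an adjusted p under 0.05, beside 9.28% of all genes that fell. At an unadjusted p under 0.05 in limma none of the 10 fell either, where 6362 of all 18404 genes passed in either direction. The median change was 0.58 over the 10 genes and -0.01 over all genes tested. Centring the arrays on 57 ribosomal protein genes moved the share of higher genes among all called from 61.2% to 75.4% and added YAP1 to the genes that rose (0.22, adjusted p = 0.042), and no change of these 10 genes turned. The arrays measure RNA of the whole culture, so fewer cells with a transcript and less of it per cell cannot be told apart.

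At 5 nM actinomycin D, CCN1, CCN2, AJUBA and AMOTL2 rose, TEAD1, WWTR1, YAP1 and AMOTL1 fell, and ANKRD1 and LATS2 did not pass the test. CCN2 rose by 2.00 log2 units over DMSO (4.00-fold, limma adjusted p = 1.5e-08) and CCN1 by 1.99 (3.97-fold, adjusted p = 8.2e-09), with AJUBA at 0.96 (adjusted p = 1.3e-06) and AMOTL2 at 0.92 (adjusted p = 3.3e-06). TEAD1 fell by 2.55, to 17.1% of its DMSO level (adjusted p = 1.2e-08), WWTR1 fell by 1.18, to 44.2% (adjusted p = 2.3e-07), YAP1 fell by 1.02, to 49.4% (adjusted p = 1.4e-06), and AMOTL1 fell by 0.53 (adjusted p = 5.9e-04). The CCN2 promoter shown above, with 3 copies of GGAATG, and the ANKRD1 promoter, with 2, thus belong to a gene that rose and to one whose change was -0.05 (interval -0.26 to 0.17, adjusted p = 0.71).

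In this comparison 4 of the 10 genes rose, beside 30.3% of all genes, and 4 fell, beside 23% of all genes. LATS2 changed by 0.11 (limma adjusted p = 0.22). The median change was 0.03 for the 10 genes and 0.12 for all genes, so relative to all genes CCN1 stood at 1.87 and TEAD1 at -2.67. Ribosomal protein centring shifted the median of all genes by -0.38 and the share of higher genes among those called from 56.9% to 15.4%. Under it the 4 rises and 4 falls kept their calls, ANKRD1 fell (-0.42, adjusted p = 0.0025) and LATS2 turned to a fall (-0.27, adjusted p = 0.010).

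At 50 nM, CCN1 and CCN2 rose, AJUBA, AMOTL2 and AMOTL1 fell, and YAP1, WWTR1 and TEAD1 did not pass the test. CCN1 rose by 0.42 (limma adjusted p = 8.1e-04) and CCN2 by 0.40 (adjusted p = 0.0025). AJUBA fell by 0.73 (adjusted p = 1.9e-05), AMOTL2 fell by 0.73 (adjusted p = 3.6e-05) and AMOTL1 fell by 0.53 (adjusted p = 8.8e-04). The changes of YAP1 (0.03, interval -0.15 to 0.20), WWTR1 (0.01, interval -0.15 to 0.17) and TEAD1 (-0.15, interval -0.36 to 0.07) bounded any change of the 3 factors well inside those at 5 nM.

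ANKRD1 changed by 0.24 (adjusted p = 0.057) and LATS2 by -0.09 (adjusted p = 0.27) in the same limma fit. With untreated cells as the control in place of DMSO, CCN2 was at 0.19 (adjusted p = 0.080) and ANKRD1 at 0.31 (adjusted p = 0.022), an alternative chosen after seeing the data.

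In total 2 of the 10 genes rose at 50 nM, beside 25.8% of all genes, and 3 fell, beside 23.3%. The medians were -0.04 and 0.10. Ribosomal protein centring shifted the median of all genes by -0.15, moved the share of higher genes among those called from 52.5% to 24.3%, and added falls of LATS2 (-0.24, adjusted p = 0.024) and TEAD1 (-0.29, adjusted p = 0.047). The drug comparisons share the DMSO arrays, so the dose effect was taken from the 50 nM and 5 nM arrays directly.

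Between the doses, 9 of the 10 genes differed in limma's test, 2 of them, ANKRD1 and LATS2, with calls that many alternatives removed. AJUBA was lower at 50 nM by -1.69 (adjusted p = 2.7e-08), AMOTL2 by -1.65 (adjusted p = 5.0e-08), CCN2 by -1.60 (adjusted p = 6.7e-08) and CCN1 by -1.57 (adjusted p = 3.7e-08). TEAD1 was higher by 2.40 (5.29-fold, adjusted p = 1.9e-08), WWTR1 by 1.19 (adjusted p = 2.1e-07) and YAP1 by 1.04 (adjusted p = 1.1e-06). AMOTL1 differed by 0.00 (interval -0.20 to 0.21, adjusted p = 0.99), or by 0.23 with ribosomal protein centring (adjusted p = 0.044).

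ANKRD1 (0.29, adjusted p = 0.030) and LATS2 (-0.20, adjusted p = 0.035) passed limma's test by little. ANKRD1 lost its call without 5 nM replicate 2 (0.16, adjusted p = 0.21) and without 50 nM replicate 1 (0.27, adjusted p = 0.12) or 2 (0.32, adjusted p = 0.068). It was lost too with only the arrays of the comparison (adjusted p = 0.10), with all rows (adjusted p = 0.054) and with trend and robust eBayes (adjusted p = 0.050). LATS2 lost it without 5 nM replicate 1 (-0.19, adjusted p = 0.10) or 2 (-0.22, adjusted p = 0.061) and without 50 nM replicate 2 (-0.14, adjusted p = 0.22), with only the arrays of the comparison (adjusted p = 0.17), with all rows (adjusted p = 0.051) and with quantile normalization (-0.12, adjusted p = 0.20), and it turned to 0.03 with ribosomal protein centring (adjusted p = 0.74). So 4 genes were higher at 50 nM, beside 21.6% of all genes, and 5 lower, beside 23.1%. Centring on ribosomal protein genes moved the share of higher genes from 48.3% to 74% of those called, with a shift of the median of all genes by 0.23.

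The response to FLI1 shRNA and the response to 5 nM actinomycin D, which use different control arrays, were then subtracted from each other in the same limma fit. All 10 genes differed, beside 46.6% of all genes. TEAD1 differed most, by 2.86 (SE 0.14, adjusted p = 1.5e-07), followed by ANKRD1 at 2.43 (SE 0.14, adjusted p = 3.0e-07), WWTR1 at 1.77 (SE 0.10, adjusted p = 3.4e-07) and YAP1 at 1.17 (SE 0.11, adjusted p = 1.1e-05). AMOTL1 differed by 0.71 (adjusted p = 0.0011) and LATS2 by 0.64 (adjusted p = 3.2e-04), all of these being higher in the FLI1 shRNA response.

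The other 4 genes rose less with FLI1 shRNA than at 5 nM, with differences of -0.72 for CCN2 (limma adjusted p = 4.6e-04), -0.49 for AJUBA (adjusted p = 0.0032), -0.47 for CCN1 (adjusted p = 0.0035) and -0.37 for AMOTL2 (adjusted p = 0.023). These 4 depended on the scaling. With ribosomal protein centring, which shifted the median of all genes by 0.45 and moved the share of higher genes from 49% to 88.7% of those called, CCN2 was at -0.27 (adjusted p = 0.064), AJUBA at -0.04 (adjusted p = 0.79), CCN1 at -0.02 (adjusted p = 0.87) and AMOTL2 at 0.08 (adjusted p = 0.60). AMOTL2 also lost its call without FLI1 shRNA replicate 1 (-0.36, adjusted p = 0.060) or 2 (-0.37, adjusted p = 0.061), lacZ shRNA replicate 1 (-0.30, adjusted p = 0.076), DMSO replicate 1 (-0.30, adjusted p = 0.086) or 5 nM replicate 1 (-0.33, adjusted p = 0.053).

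The control treatments moved these genes little. DMSO against untreated cells gave changes of -0.21 to 0.15, of which 0 of 10 passed limma's adjusted test, beside 0.00543% of all genes called. At an unadjusted p under 0.05 in limma 1 passed, CCN2, beside 1383 of all 18404 genes. With lacZ shRNA against untreated cells ANKRD1 rose by 0.51 (adjusted p = 0.025) and the other 9 genes, at -0.24 to 0.11, did not pass, beside 3.08% of all genes called. The call of ANKRD1 was lost without any 1 of the 4 arrays (0.45 to 0.57, adjusted p from 0.075 to 0.18). With ribosomal protein centring the share of higher genes among those called moved from 26.5% to 2% for lacZ shRNA, with a shift of -0.18, and from 100% to 4.17% for DMSO, with a shift of -0.14.

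The length of the genes was set beside their response, since the genes that fell at 5 nM were the long ones. The span from first to last transcribed base in the RefSeq annotation of GRCh38.p14 was 3.19 kb for CCN1, 3.2 kb for CCN2, 8.99 kb for ANKRD1, 11.4 kb for AJUBA, 20.1 kb for AMOTL2, 88.6 kb for LATS2, 123 kb for YAP1, 170 kb for AMOTL1, 208 kb for WWTR1 and 270 kb for TEAD1. The 4 genes over 100 kb were the 4 that fell at 5 nM. Across the 10 genes Spearman's rank correlation between span and the change at 5 nM was -0.90. Span was taken up because of this pattern, so that value restates it. Across 16898 protein-coding genes the correlation was -0.52. Both are descriptions over genes that share the same arrays.

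**Figure D3:**
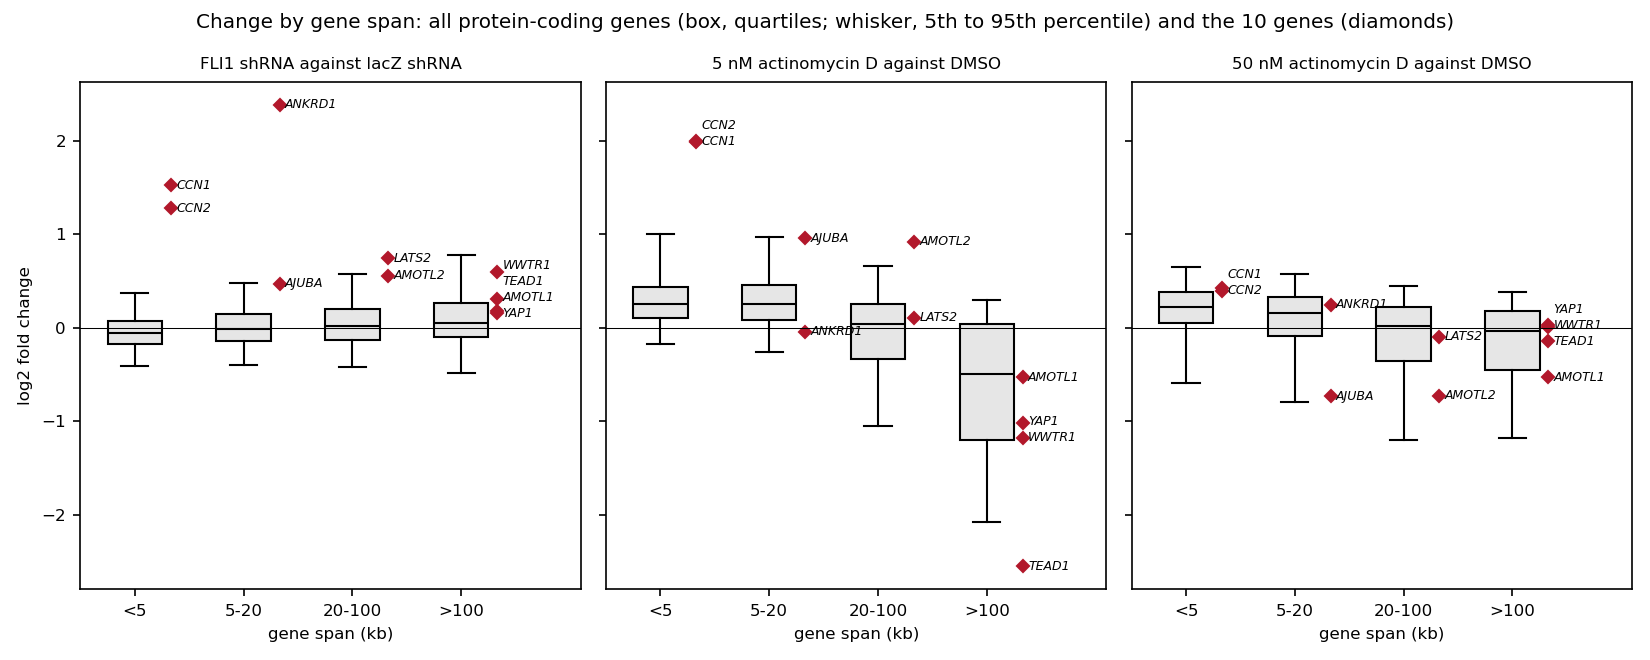
Log2 fold change (vertical axis) by gene span in kb (horizontal axis) in 3 comparisons. Boxes give median and quartiles of all protein-coding genes with a span, whiskers the 5th to 95th percentile, and diamonds the 10 genes. At 5 nM the median of all genes was 0.25 under 5 kb and -0.49 over 100 kb, and TEAD1 lay below the lower whisker of its class.

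Among all genes over 100 kb, 57.6% fell at 5 nM and 5.46% rose, with a median change of -0.49. Within that class AMOTL1 stood at percentile 48.5, YAP1 at 31.9 and WWTR1 at 25.9, inside the middle of the class, while TEAD1 stood at 1.69. Among genes under 5 kb the median was 0.25 and 45.4% rose, and CCN1 and CCN2 stood at percentile 99.5. AMOTL2, in the class from 20 to 100 kb, was at 98.1 and AJUBA, from 5 to 20 kb, at 94.9, whereas ANKRD1 in the same class was at 12.9. The falls of YAP1, WWTR1 and AMOTL1 were thus of a size common among long genes, and the rises of CCN1 and CCN2 were not common among short ones.

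At 50 nM the medians of the shortest and longest class were 0.23 and -0.03, with a rank correlation of -0.29 over all genes and -0.48 over the 10. AJUBA then stood at percentile 5.94 of its class and AMOTL2 at 13.3. With FLI1 shRNA the class medians ran from -0.05 to 0.05, and the share of genes that rose went from 7.39% under 5 kb to 22.5% over 100 kb. The rank correlation was 0.13 over all genes and -0.70 over the 10, and ANKRD1, CCN1 and CCN2 stood at percentiles 99.9, 99.8 and 99.7 of their classes.

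The wider pathway was described by lists of genes, with counts and medians in place of a test of the list. The 22 measured Hippo kinases and regulators included 6 that rose, 3 that fell and 13 that did not pass with FLI1 shRNA (median 0.12). Of all genes 14.6% rose and 9.28% fell. Under ribosomal protein centring 8 of the 22 rose and 2 fell, and of all 18404 genes 3755 rose and 1224 fell. The largest rises were those of FRMD6 at 0.74, the YAP-binding scaffold AMOT at 0.74 and NF2, which encodes merlin, at 0.72. NF2 was lower by -0.68 with lacZ shRNA than in untreated cells (limma adjusted p = 0.0034), and against untreated cells its change with FLI1 shRNA was 0.04 (adjusted p = 0.78). Protocadherin FAT4 fell by 0.43, or was at -0.08 against untreated cells (adjusted p = 0.58), the MST kinase STK4 fell by 0.40 and the scaffold WWC1 fell by 0.34 (limma adjusted p against lacZ shRNA of 0.0048, 0.0024 and 0.018), the last losing its call when FLI1 shRNA replicate 1 (-0.29, adjusted p = 0.13) or lacZ shRNA replicate 2 (-0.27, adjusted p = 0.14) was left out.

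At 5 nM, 14 of the 22 Hippo genes fell, 5 rose and 3 did not pass (median -0.58, beside 0.12 over all genes, of which 23% fell and 30.3% rose). Among all genes over 100 kb 57.6% fell, and the part of gene span in the Hippo count was not tested. TAOK3 and TAOK1, kinases that act on MST kinases, fell by 2.68 and fell by 2.29, and WWC2 fell by 2.12 (limma adjusted p = 3.7e-09, 1.4e-08 and 9.1e-08). The largest rises were those of RASSF1, a MST-binding scaffold, at 0.87, SAV1, the MST adaptor, at 0.49, and MOB1A, the LATS coactivator, at 0.36. Centring on ribosomal protein genes took MOB1A to -0.02 and SAV1 to 0.11 without a call (limma adjusted p = 0.23). Under it 1 of the 22 rose and 17 fell, and of all 18404 genes 1574 rose and 8654 fell. At 50 nM, 2 rose, 10 fell and 10 did not pass (median -0.17, beside 0.10 over all genes, of which 25.8% rose and 23.3% fell): FAT4 fell by 1.2, BTRC, a ubiquitin ligase subunit that recognizes phosphorylated YAP, fell by 1.15 and FRMD6 fell by 1.03, while RASSF1 rose by 0.57 and WTIP, a relative of AJUBA, by 0.25. WTIP lost its call without DMSO replicate 2 (0.19, adjusted p = 0.15) or 50 nM replicate 1 (0.15, adjusted p = 0.19).

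The remaining TEAD factors and the VGLL cofactors, which bind TEAD in place of YAP, made up 7 genes. With FLI1 shRNA 2 rose, TEAD3 by 0.63 and VGLL3 by 0.53, and TEAD4 fell by 0.27 (limma adjusted p = 1.6e-04, 0.0011 and 0.016), beside the shares of 14.6% and 9.28% over all genes. TEAD4 lost that call without FLI1 shRNA replicate 1 (-0.29, adjusted p = 0.068) or 2 (-0.25, adjusted p = 0.10) or lacZ shRNA replicate 1 (-0.22, adjusted p = 0.11), and with ribosomal protein centring (-0.20, adjusted p = 0.085), where 2 rose and 0 fell. Under that centring 3755 of all 18404 genes rose and 1224 fell. Against untreated cells TEAD4 was at -0.46 (limma adjusted p = 6.6e-04).

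At 5 nM TEAD4 fell by 0.58, VGLL4 fell by 0.38 and TEAD2 fell by 0.29, and VGLL2 rose by 0.36, against a fall by 2.55 for TEAD1. The VGLL2 call was lost without DMSO replicate 1 (0.26, adjusted p = 0.16) or 5 nM replicate 2 (0.20, adjusted p = 0.19), and the change turned to -0.02 with ribosomal protein centring. At 50 nM VGLL3 rose by 0.53, VGLL2 by 0.39 and TEAD2 by 0.34, and TEAD3 fell by 0.39, VGLL4 fell by 0.36 and TEAD4 fell by 0.29. Here VGLL2 lost its call without DMSO replicate 1 (0.30, adjusted p = 0.13) or 50 nM replicate 2 (0.32, adjusted p = 0.10). With ribosomal protein centring 0 rose and 5 fell at 5 nM, and 1 rose and 3 fell at 50 nM. Under that centring 1574 of all 18404 genes rose and 8654 fell at 5 nM, and 1765 rose and 5490 fell at 50 nM. Without this centring 30.3% of all genes rose and 23% fell at 5 nM, and 25.8% and 23.3% at 50 nM. Against untreated cells VGLL2 was at 0.19 at 5 nM (limma adjusted p = 0.19) and at 0.23 at 50 nM (adjusted p = 0.13). Its mean signals were low, 5.18 with DMSO, 5.54 at 5 nM and 5.57 at 50 nM. Whether VGLL2 was above background was not established.

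Further genes known as targets of YAP and TAZ followed ANKRD1, CCN1 and CCN2 in part. Of 20 measured, 13 rose with FLI1 shRNA, 1 fell and 6 did not pass (median 0.51, beside -0.01 over all genes, of which 14.6% rose and 9.28% fell). The largest rises were those of TGFB2, a TGF-beta ligand, by 3.03, ARHGAP29, a GTPase-activating protein, by 2.38, and NT5E, the ecto-nucleotidase CD73, by 2.07 (limma adjusted p = 5.4e-08, 2.4e-05 and 4.6e-07). ASAP1, an Arf GTPase-activating protein, fell by 0.28, a call that was lost without any 1 of the 4 arrays (-0.33 to -0.24, adjusted p from 0.095 to 0.22) and against untreated cells (-0.18, adjusted p = 0.17).

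At 5 nM 11 of these 20 genes rose, 6 fell and 3 did not pass (median 0.43, beside 0.12 over all genes, of which 30.3% rose and 23% fell). CCDC80, a matrix protein gene, rose by 1.44, the stress gene GADD45A by 1.40 and the four-jointed homologue FJX1 by 1.11 (limma adjusted p = 1.6e-06, 2.9e-08 and 5.6e-07), while ASAP1 fell by 2.59, the RNA-binding protein gene RBMS3 fell by 1.54 and the Rac exchange factor DOCK5 fell by 1.44. With ribosomal protein centring 5 of the 20 rose and 7 fell, where 1574 of all 18404 genes rose and 8654 fell.

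At 50 nM 9 rose, 3 fell and 8 did not pass (median 0.19, beside 0.10 over all genes, of which 25.8% rose and 23.3% fell), led by NT5E at 0.69, GADD45A at 0.42 and the forkhead factor gene FOXF2 at 0.39, and by falls of ARHGAP29 (-1.03), the guanine nucleotide exchange factor ARHGEF17 (-0.68) and DOCK5 (-0.46). The count of 9 was lower without DMSO replicate 1 or 50 nM replicate 1. It went to 3 with ribosomal protein centring, under which 6 fell, where 1765 of all 18404 genes rose and 5490 fell. FOXF2 lost its call without DMSO replicate 1 (0.34, adjusted p = 0.12) or 50 nM replicate 2 (0.35, adjusted p = 0.095). Against untreated cells 5 of the 20 fell, and the share over all genes was not counted for this control. NT5E was then at 0.45 (limma adjusted p = 0.0027).

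Among the 4 other measured CCN genes, CCN3 rose by 1.12 with FLI1 shRNA (limma adjusted p = 1.1e-04) and by 0.95 at 5 nM (adjusted p = 7.9e-05), and CCN5 rose by 0.37 at 5 nM (adjusted p = 0.014). The CCN5 call was lost without DMSO replicate 1 (0.29, adjusted p = 0.11) or 5 nM replicate 2 (0.36, adjusted p = 0.057) and its change was 0.00 with ribosomal protein centring, where 1 rose and 2 fell. Under that centring 1574 of all 18404 genes rose and 8654 fell at 5 nM. All 4 CCN genes rose at 50 nM, by 0.28 to 0.40, beside 25.8% of all genes that rose. Fewer of them did when DMSO replicate 1 or either 50 nM replicate was left out. At 50 nM 0 of the 4 rose with ribosomal protein centring, where 1765 of all 18404 genes rose.

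Targets of the actin-regulated factors MRTF and SRF, which share many genes with YAP and TAZ, counted 11. With FLI1 shRNA 7 rose and 0 fell, and 0 fell also at an unadjusted p under 0.05 in limma (median 0.65). Over all genes 14.6% rose and 9.28% fell at the adjusted threshold, and 6362 of 18404 passed the unadjusted one in either direction. The largest rises were those of the smooth muscle genes TAGLN at 1.41 and ACTA2 at 0.99 and the adhesion protein gene VCL at 0.98. In the control, 3 of the 11 were lower with lacZ shRNA than in untreated cells, beside 416 of all 18404 genes. These were ACTG2 by -1.06, ACTA2 by -0.58 and VCL by -0.29 (limma adjusted p = 9.0e-05, 0.0080 and 0.048). Against untreated cells 6 of the 11 rose with FLI1 shRNA, TAGLN by 1.48, VCL by 0.70 and ACTA2 by 0.41 among them. The share over all genes was not counted against untreated cells.

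At 5 nM 5 of these genes rose and 2 fell, beside 30.3% and 23% of all genes: SRF itself rose by 0.68, the tropomyosin gene TPM2 by 0.68 and the smooth muscle actin gene ACTG2 by 0.62, while VCL fell by 0.59 and the non-muscle myosin gene MYH9 fell by 0.54 (median 0.26). At 50 nM 6 rose and 1 fell, beside 25.8% and 23.3% of all genes, with ACTG2 at 0.98, TPM2 at 0.68 and TAGLN at 0.60, and SRF fell by 0.27 (median 0.37). The TAGLN call at 50 nM was lost without 50 nM replicate 2 (0.47, adjusted p = 0.052), and that of SRF without 50 nM replicate 1 (-0.23, adjusted p = 0.050).

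With untreated cells in place of DMSO, ACTG2 was at 0.07 at 5 nM (limma adjusted p = 0.40) and at 0.44 at 50 nM (adjusted p = 4.3e-04). With this control 3 of the 11 genes rose at 5 nM, and the share over all genes was not counted for it. ACTG2 was lower by -0.54 with DMSO than in untreated cells (adjusted p = 0.085). With ribosomal protein centring 3 of the 11 MRTF and SRF targets rose and 3 fell at 5 nM, and 4 rose and 1 fell at 50 nM. Under that centring 1574 of all 18404 genes rose and 8654 fell at 5 nM, and 1765 rose and 5490 fell at 50 nM.

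Likeness between genes was measured as Pearson's r of log2 signals over the 12 arrays, among 3783 genes whose mean lay above the 40th percentile and whose group means spanned at least 1 log2 unit. The genes most like CCN1 were GADD45A (0.99), ENC1 (0.98), CCN2 (0.98) and GEM (0.98), and those most like CCN2 were ENC1 (0.99), CDKN1A (0.98), CCN1 (0.98) and GADD45A (0.97). Those most like YAP1 were ATE1, KCTD20, UTRN and GOLGA1, each at 0.99. The 12 arrays form 6 groups, so these values rest on few independent points.

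Within the 10 genes, YAP1 and TEAD1 were at 0.98, WWTR1 was at 0.96 with each of them, AMOTL2 and AJUBA were at 0.97, and ANKRD1 was closest to LATS2 (0.93), with 0.41 to CCN1. The 10 genes thus fell into sets that differed in which group stood apart: 5 nM low for YAP1, WWTR1 and TEAD1, 5 nM and FLI1 shRNA high for CCN1 and CCN2, 5 nM high and 50 nM low for AMOTL2 and AJUBA, FLI1 shRNA high for ANKRD1 and LATS2, and both doses low for AMOTL1.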

How the data were processed

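RNA of A673 cells was measured on 12 Affymetrix HuGene 1.0 ST arrays, 2 in each of 6 groups taken from the labels. Values were deposited by the authors on the log2 scale after RMA (background correction, normalization and summary per probe set) in affy. No affy version is named in the sources used here. RMA sets the arrays to a common distribution, so values are relative within an array and a change in total RNA per cell is not measured. The number of arrays limits the precision.

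Of 32321 rows, 19158 name 1 gene, 1388 several and 11775 none. The brightest probe set stood for each of 637 genes with several, which left 18404 genes. A limma 3.58.1 fit in R 4.3.3 gave a mean per group, with 6 residual and 4.45 prior degrees of freedom and Benjamini-Hochberg adjustment within each comparison. With 2 arrays per group an exact permutation test of single values cannot go below a two-sided p of 0.333 and was not used. The fit was tested on simulated data for FLI1 against lacZ shRNA with 200 of 18404 genes changed and independent noise. It recovered 66.2% of changes of 0.5 log2 units, 95.5% of 1 and 100% of 2, with 7 false calls among 18204 genes. In the data 4398 genes were called and deviations of arrays were correlated, so these rates need not hold there.

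The genes and lists were chosen with earlier results of these data known, and the lists come from general knowledge. Named genes were the 10 genes, FLI1, the marker genes, up to 3 genes per list, direction and comparison with the largest called change, and the 4 genes most like CCN1, CCN2 and YAP1. Listed genes without a probe set that names them alone were not analysed here. Spans and promoters came from RefSeq tables of GRCh38.p14. Alternatives were a replicate block, only the arrays of a comparison, genes under the 40th percentile left out, the mean over probe sets, all rows, quantile normalization again, centring on 57 ribosomal protein genes, trend and robust eBayes and each array left out. Lone arrays left by this were assumed to vary like the other groups. Untreated cells as control, a crossed block and the comparison with gene span were added after the data were seen.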

Additional observations from a re-analysis of the deposited data

How the results depend on the processing

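With each of the alternatives, 893 values of the 10 genes kept their side of the threshold, and their direction where called. Another 35 lost a call, 12 gained one and 3 turned with a call in either fit. Values called in neither fit were counted as kept even where their sign changed. For AJUBA with DMSO against untreated cells, for example, they ran from -0.0588 to 0.1019. The scaling mattered most. Whether the ribosomal protein genes were themselves unchanged by the treatments was not tested, so this centring is an alternative and not a stable reference. With ribosomal protein centring the genes that fell went from 3 to 5 at 50 nM, from 0 to 4 with lacZ shRNA against untreated (1 with trend and robust eBayes), and the 4 that were lower in the FLI1 shRNA than in the 5 nM response went to 0. LATS2 turned to -0.27 at 5 nM and to 0.0285 between doses, AMOTL2 to 0.0818 in the difference of responses, and MOB1A, VGLL2 and CCN5 at 5 nM to -0.0195, -0.0182 and -0.0035. The single rise with lacZ shRNA, ANKRD1, went to 0 with only the arrays of the comparison, with dim genes left out (ANKRD1 being among them), with all rows, and without each array (0 to 0). The rise of TEAD1 with FLI1 shRNA was also lost with all rows (adjusted p = 0.092) and quantile normalization (adjusted p = 0.054). The causes were not tested.

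Replicate numbers did not pair the samples in the same way in all groups: deviations of same-numbered arrays from their group means correlated between -0.45 and 0.34. Untreated and FLI1 shRNA correlated at 0.17 with each other and negatively with the other groups, which correlated positively among themselves. With the replicate block, called genes went from 4398 to 4203 for FLI1 shRNA, 9815 to 9663 at 5 nM, 9024 to 8842 at 50 nM, 8226 to 8140 between doses, 8569 to 8400 in the difference of responses and 566 to 357 for lacZ shRNA. Among the calls of the 10 genes it removed TEAD1 with FLI1 shRNA (0.31, adjusted p = 0.062). With FLI1 shRNA and untreated numbers crossed, a block added after the data were seen, called genes went up from 4398 to 5190 for FLI1 shRNA. For lacZ shRNA they went up from 566 to 858. Changes under about 0.5 log2 units may be missed with 2 arrays per group, although some smaller ones were called.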
